A study of Rattus norvegicus with 42 samples.

Results

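The liver transcriptome without glucocorticoid was described in 6 RNA-Seq libraries of vehicle-infused (VEH) rats, 3 infused in pulses (PULS VEH) and 3 at a constant rate (CONS VEH). They were chosen by their sample labels and are 6 of the 12 RNA libraries and of the 42 libraries of the series. All came from livers of male Sprague Dawley rats whose adrenal glands had been removed, so that none of the groups had an adrenal source of corticosterone (CORT), the main glucocorticoid of the rat. The study's methods state that dexamethasone was injected after surgery and that low CORT was given in the drinking saline until some hours before infusion, so an earlier exposure to glucocorticoid was common to all groups. The vehicle was the carrier 2-hydroxypropyl-β-cyclodextrin in saline, given over 3 h either as hourly pulses of 20 min at 1 ml/h or continuously at 0.333 ml/h, and the livers were taken at 180 min, in a window around and after lights-off. The methods state that the constant CORT infusion ran at 1 ml/h for its first minutes, and they give no separate rate for constant vehicle. The methods describe the vehicle as pulsed, whereas the labels list both patterns for RNA, and the labels were followed. The legends of the study's RNA figures also list both vehicle patterns and a comparison between them. The age of the rats is not given in the sources used here. The other 6 RNA libraries (3 PULS CORT and 3 CONS CORT, the same patterns with hormone) were used for the estimate of the spread and where a level with hormone is set beside one without it.

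Hepatocytes make most plasma proteins, clear drugs and steroids through cytochromes P450, and run gluconeogenesis, urea synthesis and lipid synthesis. Glucocorticoid acts on these cells through the glucocorticoid receptor, which binds DNA when it holds hormone and raises transcription of enzymes such as Tat and Pck1, of its own feedback gene Fkbp5 and of the clock gene Per1. A liver without hormone gives the level from which such responses are counted, and the spread between livers of 1 group sets how small a response can be seen. That spread is known to follow feeding, the pulses of growth hormone, inflammation and time of day as well as the hormone itself.

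The vehicle libraries held 4711659 to 7777219 reads each, of which the 10 genes with most reads took 23.0% to 27.5%. Whether each library is 1 rat is not stated for RNA, so p-values measure only the spread between these samples. Over 9010 genes with a mean of 5 or more CPM (reads scaled to a common library size), pairs of vehicle libraries correlated at 0.966 to 0.983 on the log2 scale, and in the closest pairs 85 genes still lay 2-fold or more apart, so no library was a copy of another. The defining markers of hepatocytes were abundant in every library (Alb took 7.07% to 11.6% of reads, Hnf4a 254 to 505 CPM). Kupffer cell markers summed to 374 to 679 CPM and sinusoidal endothelial markers to 360 to 499 CPM, whereas lymphocyte markers summed to only 3.91 to 9.92 CPM and neutrophil and monocyte markers to 6.02 to 18.7 CPM. In bulk tissue, fewer cells of a type and less RNA per cell cannot be told apart. An exact 0 in the count table did not mark a silent gene. G6pc, the last enzyme of gluconeogenesis, Asl of the urea cycle and the chaperone Hsp90aa1 are used by hepatocytes and were at 0 reads in all 12 libraries, as were 5532 of the 22929 genes listed, so genes at 0 throughout are not discussed further.

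The baseline was dominated by secreted proteins. Alb, serum albumin, took 10.0% of reads on average, Tf (transferrin) 3.98%, LOC297568 2.56%, C3 (the central complement component) 2.43%, Pzp (a protease-binding plasma protein) 1.83% and Gc (the vitamin D carrier) 1.20%. These are shares of reads and are not levels per length, since exon lengths were not used here. The 97 genes with a mean CPM of 1000 or more took 47.0% of reads, and the 1413 genes at 100 or more took 77%. At the other end, 11711 genes had a mean CPM of 1 or more, and 10753 of them reached it in all 6 libraries. The plasma proteins listed (21 genes) summed to 194500 to 257300 CPM and the P450s listed to 18720 to 27050 CPM. Alb itself was at 108000, 113000 and 110000 CPM in PULS VEH and at 79300, 73400 and 115000 CPM in CONS VEH, so that the PULS VEH libraries were close to each other and CONS VEH 3 lay apart from the rest of its group.

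Most genes differed little between livers of 1 group. The median within-group SD of log2 CPM was 0.16 in PULS VEH and 0.18 in CONS VEH over the 9010 genes, and 566 genes (6.28%) lay 2-fold or more apart within PULS VEH or within CONS VEH. PULS VEH 2 and CONS VEH 2 held the most genes away from the others, since 61 genes in PULS VEH 2 and 48 in CONS VEH 2 lay 2-fold or more above the median of the other 5 libraries, against 16 to 27 in the remaining 4. Below that median were 68 genes in PULS VEH 2, 42 in CONS VEH 3, 41 in CONS VEH 2 and 16 to 31 elsewhere. Among the pathway lists, those with the largest share 2-fold apart were the glucocorticoid responsive genes (11 of 20 with a mean CPM of 5 or more, 55.0%), fatty acid and triglyceride synthesis (8 of 18, 44.4%), the circadian clock (6 of 14, 42.9%) and growth hormone and sex-typed genes (8 of 20, 40.0%). Of the 20 complement and coagulation genes at that level, 0 were, and of the 24 sterol synthesis genes 1 was (Insig1). The genes with the widest spread are described next by the kind of gene and the library that stood apart.

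**Figure D1:**
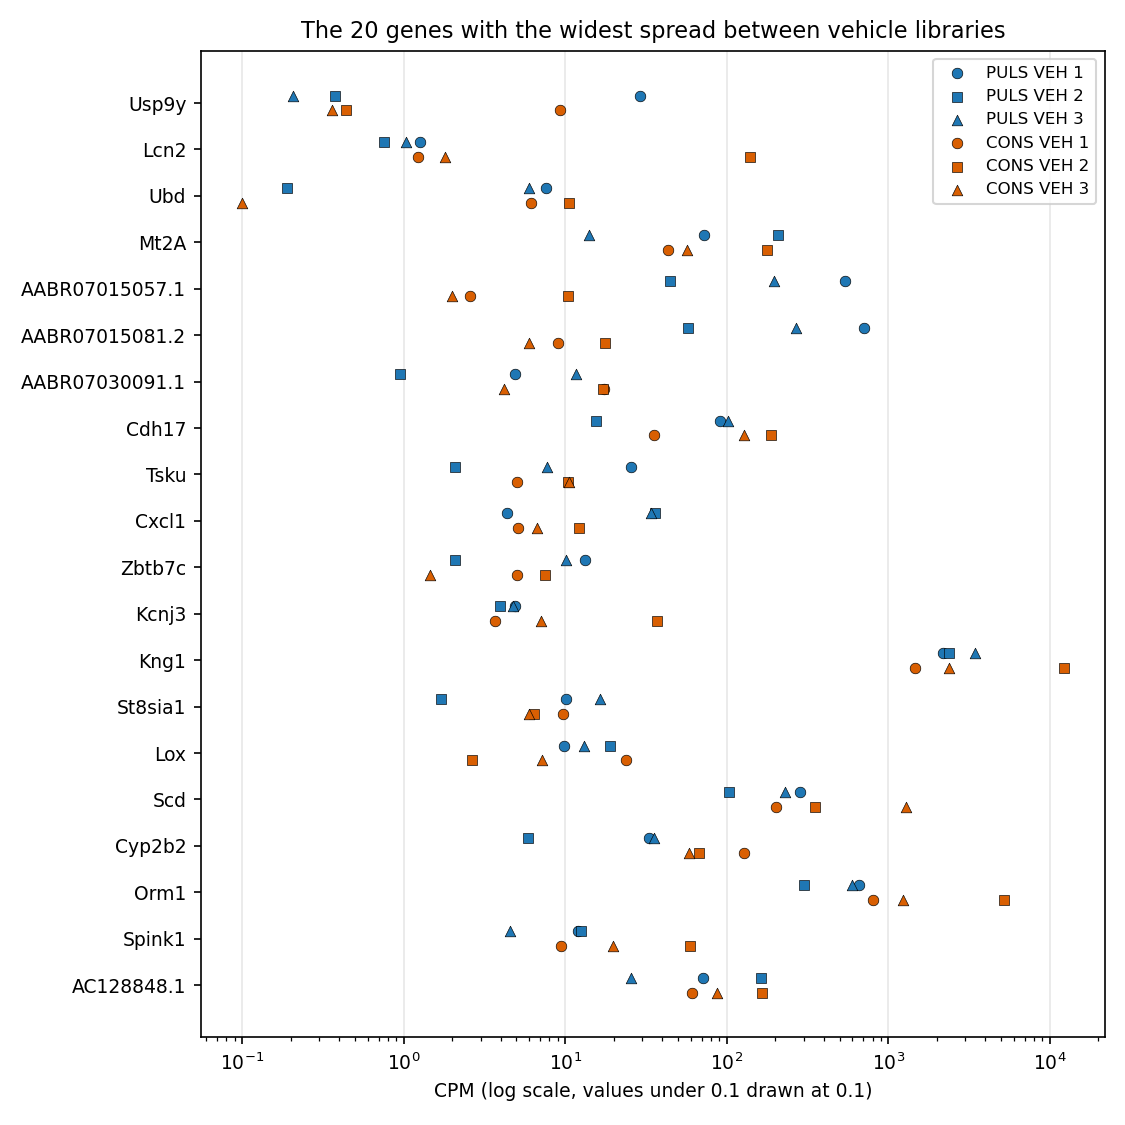
CPM (log axis) in each of the 6 vehicle libraries for the 20 genes with the largest within-group SD of log2 CPM, with PULS VEH in blue, CONS VEH in orange and the replicate number given by the shape and values under 0.1 drawn at 0.1. Lcn2, Orm1, Kng1 and Kcnj3 are highest in CONS VEH 2 (139 CPM for Lcn2 against 0.755 to 1.81 elsewhere), and the neighbours AABR07015057.1 and AABR07015081.2 are higher in all 3 PULS VEH libraries than in any CONS VEH library.

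Genes of the acute phase, the set of plasma proteins that the liver makes under inflammatory cytokines, stood apart in 1 library. Lcn2 (lipocalin 2, an iron-binding defence protein, rn6 chr3:11414186-11417546) was at 1.27, 0.755 and 1.04 CPM in PULS VEH and at 1.22, 139 and 1.81 CPM in CONS VEH. Only 4 to 10 reads lay behind each of the 5 low values and 630 behind the high one, and CONS VEH 2 was 87.4-fold above the median of the other 5. Orm1 (orosomucoid 1, rn6 chr5:79179417-79182820) was at 662, 301 and 597 CPM in PULS VEH and at 800, 5230 and 1240 CPM in CONS VEH, again highest in CONS VEH 2, and Kng1 (kininogen) reached 12200 CPM there against 1470 to 3430 elsewhere. The same library was highest for Hp (haptoglobin, 11400 CPM against 4160 to 5980), Hpx (hemopexin, 15600 against 7150 to 9640), Wfdc21 (199 against 28.9 to 82.7) and Spink1 (59.7 against 4.56 to 19.7). Its 16 acute phase genes summed to 37740 CPM, above the 17580 to 22600 of the other libraries. Markers of blood and tissue leukocytes were also highest in CONS VEH 2. For comparison, 18.6% of the 566 genes 2-fold or more apart within a group were highest in that library, and the share over all genes was not counted. All 10 Kupffer cell and macrophage markers tested were higher there than in any other library (679 CPM in sum against 374 to 528), neutrophil and monocyte markers summed to 18.7 against 6.02 to 12.1 CPM, and Lyz2 reached 11.2 against 3.32 to 5.48 CPM, although the neutrophil markers S100a8 and S100a9 were at only 0.661 and 2.20 CPM and Ngp at 0. Their part in the acute phase values was not tested.

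The promoters of the 2 acute phase genes furthest apart in CONS VEH 2 are shown because these genes moved together there. Each run is the 250 bases before the transcription start from RefSeq (build GRCr8), Lcn2 from chr3:36081781-36082030 on the minus strand and Orm1 from chr5:81788259-81788508 on the plus strand, with matches to the C/EBP-type motif TTNNGNAA on either strand in capitals.
Lcn2: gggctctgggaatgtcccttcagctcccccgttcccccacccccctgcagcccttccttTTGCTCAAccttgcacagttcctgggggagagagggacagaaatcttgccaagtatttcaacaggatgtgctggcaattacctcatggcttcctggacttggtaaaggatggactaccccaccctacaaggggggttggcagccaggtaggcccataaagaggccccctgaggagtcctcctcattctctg
Orm1: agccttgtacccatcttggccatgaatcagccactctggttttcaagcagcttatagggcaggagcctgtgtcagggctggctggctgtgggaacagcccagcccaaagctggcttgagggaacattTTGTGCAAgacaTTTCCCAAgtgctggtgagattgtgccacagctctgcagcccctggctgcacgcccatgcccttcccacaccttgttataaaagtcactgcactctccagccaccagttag
Lcn2 held 1 match and Orm1 2, and 37.2% of 33469 rat promoters of this length held at least 1. Neither run held a match to the STAT-type motif TTCNNNGAA, which 7.67% of promoters did, or to the glucocorticoid receptor half-site TGTTCT, which 17.5% did. A match describes letters in the window and is not evidence of binding.

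Metallothionein, a small cysteine-rich protein that binds zinc and copper and is induced by metals and glucocorticoid, varied within both groups. Mt2A (rn6 chr19:11307967-11308740) was at 72.5, 209 and 14.1 CPM in PULS VEH and at 43.1, 179 and 56.5 CPM in CONS VEH. Replicate 2 was the highest of each group, PULS VEH 3 was the lowest of all, and the range of 14.8-fold lay within 1 group rather than between them (log2 fold change 0.11, SE 0.68, adjusted p = 0.980 in edgeR). AC128848.1, an unnamed gene that ends 5028 bases from Mt2A on the same strand (rn6 chr19:11302125-11302938), followed the same order within each group, at 71.7, 163 and 25.7 CPM in PULS VEH and at 60.8, 165 and 87.4 CPM in CONS VEH. Its ratio to Mt2A ran from 0.781 to 1.82 among vehicle libraries, and whether reads are shared between these 2 genes was not tested. RefSeq (GRCr8) places the metallothionein gene Mt1 on the same side and strand of Mt2A, with its promoter at chr19:10832976-10833225. Whether AC128848.1 is Mt1 was not tested. With hormone, Mt2A was at 75.1 to 565 CPM, so the vehicle range overlapped it. The Mt2A promoter (RefSeq, GRCr8, chr19:10838709-10838958, minus strand) is shown with matches to TGCNCNC in capitals on either strand. These letters are a looser form of the core of the metal response element bound by Mtf1, so a match need not be a full core.
Mt2A: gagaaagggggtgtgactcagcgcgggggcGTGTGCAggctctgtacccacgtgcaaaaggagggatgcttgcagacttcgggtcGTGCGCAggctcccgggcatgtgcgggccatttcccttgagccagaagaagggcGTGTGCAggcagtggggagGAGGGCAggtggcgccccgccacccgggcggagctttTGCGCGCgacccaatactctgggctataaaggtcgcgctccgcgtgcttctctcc
It held 5 matches, where 43.4% of promoters held at least 1, and it held none to TGTTCT, TTCNNNGAA or TTNNGNAA.

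A pair of unnamed neighbours on chromosome 14 gave, with Lcn2, the 3 largest fold changes between the patterns among genes with a mean CPM of 5 or more. AABR07015057.1 (rn6 chr14:46523594-46529375) was at 539, 44.4 and 197 CPM in PULS VEH and at 2.57, 10.4 and 1.99 CPM in CONS VEH. AABR07015081.2, which lies 124 kb away on the same strand (rn6 chr14:46653040-46657975), was at 710, 57.6 and 269 CPM and at 9.04, 17.6 and 5.97 CPM. All 3 PULS VEH libraries lay above all 3 CONS VEH libraries in both genes, as they did in 6.99% of all genes, yet PULS VEH 2 lay far below PULS VEH 1, and edgeR called neither (log2 fold change 5.83, SE 1.14, adjusted p = 0.203 for the first and 5.03, SE 1.15, adjusted p = 0.254 for the second). DESeq2 called both (adjusted p = 0.00027 and 0.00271 in DESeq2), as did edgeR with no filter on low counts. The gene annotated between them, AABR07015067.1, did not share the pattern, at 4.71, 2.83 and 7.26 against 3.79, 3.31 and 5.43 CPM. In the hormone libraries AABR07015057.1 was at 1588, 79.9 and 213 CPM in PULS CORT and at 19.1, 51.2 and 30.3 CPM in CONS CORT. The ratio of the pair was 0.733 to 0.770 in PULS VEH and 0.284 to 0.587 in CONS VEH, and 0.192 to 2.06 with hormone. Both are listed as protein coding, their function is not given in the sources used here, and whether near-identical copies share their reads was not tested.

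Other wide genes each stood apart in certain libraries, upward in some genes and downward in others. Usp9y, a ubiquitin protease on the Y chromosome, was at 29.0, 0.378 and 0.207 CPM in PULS VEH and at 9.28, 0.441 and 0.362 CPM in CONS VEH, that is 160 reads in PULS VEH 1, 76 in CONS VEH 1 and 1 or 2 in each of the others. The Y-linked genes Kdm5d (64.1 to 79.0 CPM) and Eif2s3y (46.7 to 65.0 CPM) were at similar levels in all 6, and the X-linked relative Usp9x was at 309 to 373 CPM. Ubd, an interferon-induced ubiquitin-like modifier, had 42, 1 and 29 reads in PULS VEH and 50, 48 and 0 in CONS VEH, where 0 reads allow up to 0.515 CPM. Scd, which makes monounsaturated fatty acids, was at 284, 103 and 229 CPM in PULS VEH and at 202, 352 and 1290 CPM in CONS VEH, so that CONS VEH 3 lay above the rest. Cyp2b2, a P450 induced by phenobarbital, was lowest in PULS VEH 2, at 33.0, 5.85 and 35.5 CPM against 127, 67.9 and 58.8 CPM. The chemokine gene Cxcl1 was high in PULS VEH 2 and PULS VEH 3 (35.9 and 34.2 CPM) and at 4.35 CPM in PULS VEH 1, against 5.13, 12.1 and 6.70 CPM in CONS VEH. In PULS VEH 2 the transcription factors Cux2 and Onecut1 stood 7.42-fold and 6.62-fold above the median of the other libraries and the sulfotransferase Sult2a2 4.53-fold.

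The genes known to answer glucocorticoid differed in how their baseline stood to the level with hormone. Of the 24 tested, 12 (50.0%) were lower in all 6 vehicle libraries than in all 6 CORT libraries, against 3.73% of the 14092 genes tested, and 0 were higher in all, against 3.07%. Most vehicle libraries also differ from the CORT libraries in the numbers of their sample titles, described below, and the part of these was not tested. Fkbp5, the co-chaperone that damps the receptor, was at 13.9 to 22.1 CPM without and 58.4 to 194 CPM with hormone. Lpin1, a phosphatidate phosphatase, was at 70.8 to 112 against 638 to 2150 CPM. Tat, tyrosine aminotransferase, was at 331 to 965 against 1260 to 2930 CPM, and the transcription factor Zbtb16 at 32.1 to 94.2 against 322 to 651 CPM. Tsc22d3 (2.64 to 4.98 against 13.8 to 35.3 CPM), Dusp1 (3.94 to 9.16 against 12.4 to 25.6 CPM) and Cdkn1a (2.87 to 8.30 against 13.4 to 32.8 CPM) were likewise separate. Others on the list overlapped with their hormone levels, among them Sgk1 (34.0 to 131 without and 21.4 to 55.4 CPM with), Igfbp1 (10.7 to 39.3 and 24.1 to 251 CPM) and Pck1 (1030 to 2130 and 2070 to 3420 CPM), whose highest vehicle library passed the lowest hormone library.

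The spread of these genes among vehicle libraries was not the same for all. Fkbp5 and Lpin1 ranged 1.58-fold over the 6 libraries, Tsc22d3 1.88-fold, Tat 2.92-fold, Per1 3.00-fold and Sds, the serine dehydratase of gluconeogenesis, 5.52-fold (12.03 to 66.4 CPM). For Tat the values were 965, 331 and 486 CPM in PULS VEH and 606, 718 and 954 CPM in CONS VEH, with PULS VEH 1 and CONS VEH 3 the highest and both groups overlapping. Between the patterns, Pck1 was at 1500, 1060 and 1030 CPM in PULS VEH and at 1740, 1460 and 2130 CPM in CONS VEH (log2 fold change -0.57, SE 0.17, adjusted p = 0.360 in edgeR). Of the 24 genes, 4 were lower (Pck1, Lcn2, Angptl4 and Mgst1) and 1, Klf9, higher in PULS VEH at an unadjusted p under 0.05, against 4.75% and 4.38% of all genes. Without CONS VEH 2, the library in which Lcn2 was high, 2 were lower.

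Of the 20 clock genes tested, 3 (15.0%) were lower in all vehicle than in all CORT libraries, against 3.73% of all genes, and 1 (5.0%) was higher, against 3.07%. Per1, the period gene with a direct receptor site, was at 2.08 to 6.22 CPM without hormone and 20.6 to 31.5 CPM with it, Usp2 at 0.566 to 4.15 against 22.9 to 38.9 CPM, and Noct, a rhythmic gene, at 0.362 to 3.62 against 4.45 to 32.1 CPM. Cry2, a repressor of the clock, was at 20.6 to 33.0 against 13.3 to 18.3 CPM. Of the activators, Clock was at 98.2 to 125 CPM (1.27-fold) and Arntl at 74.4 to 112 CPM (1.51-fold) among vehicle livers, and Npas2, the paralogue of Clock, at 37.0 to 97.3 CPM (2.63-fold), whereas Nr1d1, Per3 and Dbp ranged 3.36-fold, 3.48-fold and 2.75-fold. Between the patterns 1 of the 20 had an unadjusted p under 0.05, against 9.13% of all genes (Cry2, log2 fold change -0.46, adjusted p = 0.360 in edgeR).

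**Figure D2:**
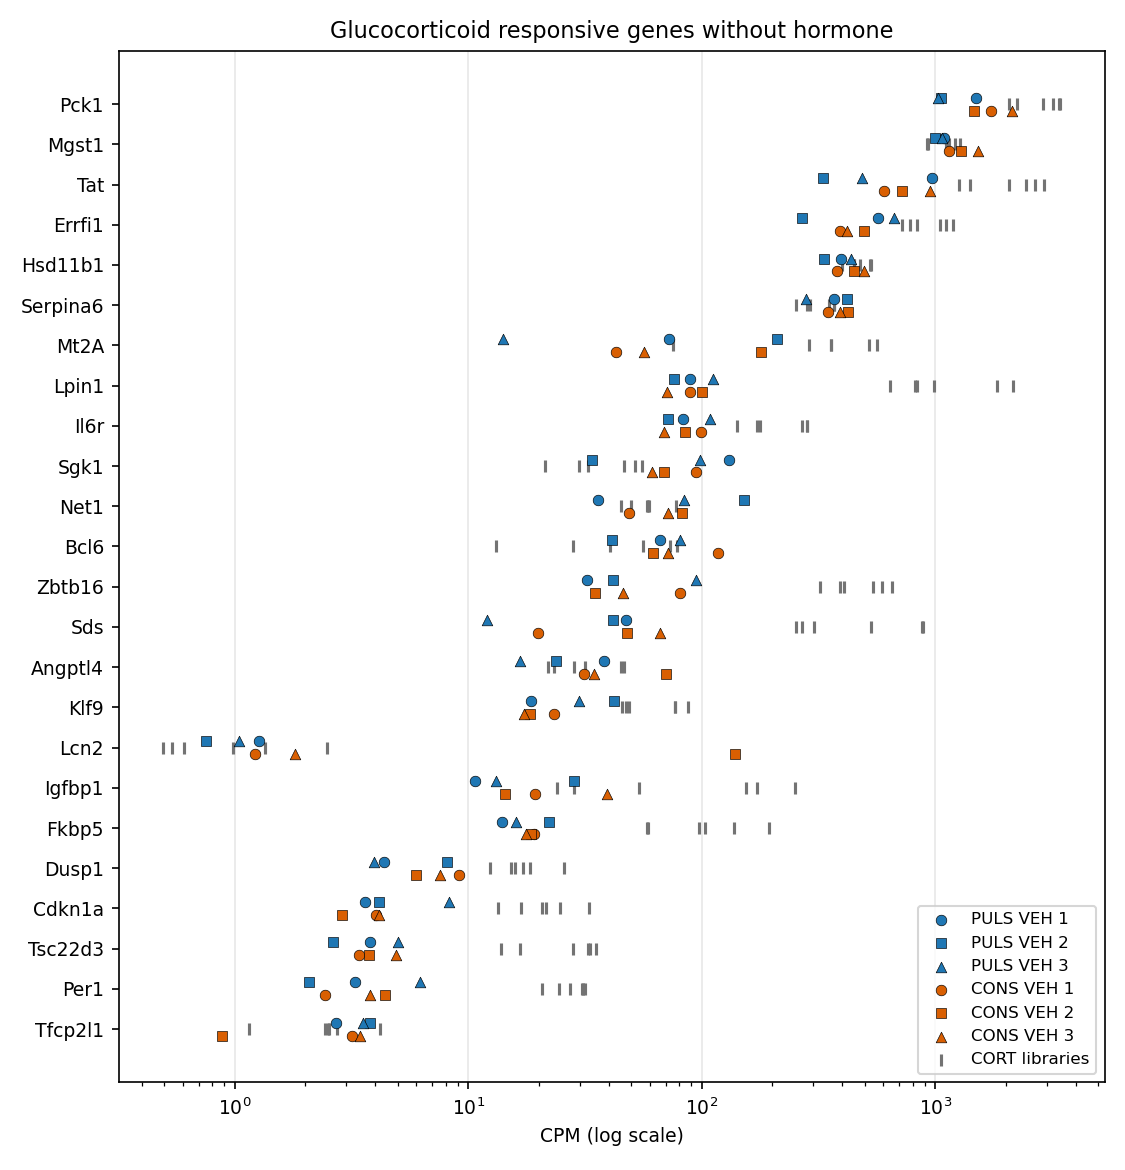
CPM (log axis) of the 24 glucocorticoid responsive genes in the 6 vehicle libraries (coloured points, shape by replicate) and the 6 CORT libraries (grey ticks). The vehicle points of Fkbp5 (13.9 to 22.1 CPM), Lpin1, Zbtb16 and Per1 sit left of every tick, those of Sgk1, Net1 and Mgst1 overlap the ticks, and Lcn2 has 1 vehicle library at 139 CPM.

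In edgeR the patterns of vehicle infusion gave no gene past the thresholds, whereas DESeq2, the test the study used, called some. At an adjusted p under 0.05 and 1.5-fold, edgeR called 0 of 14092 genes (0%), with 1286 (9.13%) at an unadjusted p under 0.05, 617 higher and 669 lower in PULS VEH. limma-voom also called 0, with 1368 at an unadjusted p under 0.05, whereas DESeq2 called 20 of the 705 genes for which it gave an adjusted p (2.84%), 7 higher and 13 lower. Among genes with a mean CPM of 5 or more, 90% of fold changes lay between -0.39 and 0.37 on the log2 scale, and 33 genes lay over 2-fold apart. The vehicle groups did not overlap for 1952 genes (13.9% of those tested). Leaving out CONS VEH 1 gave 23 calls in edgeR (4 higher and 19 lower, among them Gpt, Cyp3a9, Ass1 and Hpd), and leaving out PULS VEH 1 gave 5, of which Lurap1l, Cxcl1, AABR07052441.1 and Ppp1r9a were higher and Ethe1 lower in PULS VEH.

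**Figure D3:**
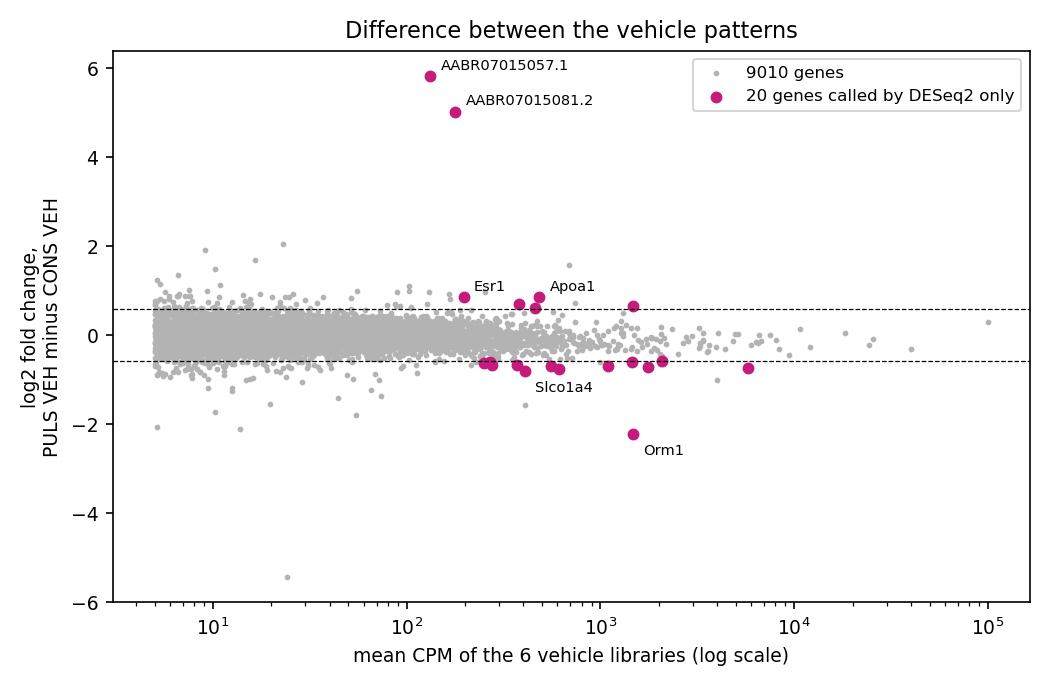
Log2 fold change, PULS VEH minus CONS VEH, against mean CPM (log axis) for the 9010 genes with a mean CPM of 5 or more, with the 20 genes that DESeq2 called and edgeR did not in magenta and the fold threshold of 1.5 dashed. Most points lie between the dashed lines, and AABR07015057.1 and AABR07015081.2 stand at 5.83 and 5.03, with Lcn2 the lowest point at -5.44.

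The genes with the smallest p-values were Gpt, Ethe1, Ehhadh, MGC108823, Coq8a and AABR07015057.1, of which Gpt had an adjusted p of 0.108 and the others 0.203 in edgeR. The genes described here were chosen after their values were seen, and none passed the adjusted threshold in edgeR. Gpt, alanine aminotransferase (rn6 chr7:117759083-117761931), was at 52.0, 40.6 and 52.7 CPM in PULS VEH and at 75.4, 91.7 and 99.4 CPM in CONS VEH, with no overlap (log2 fold change -0.87, SE 0.14, adjusted p = 0.108). Ethe1, the mitochondrial sulfide dioxygenase, was at 61.4, 34.0 and 47.5 against 81.4, 109 and 99.2 CPM (-1.01, SE 0.19, adjusted p = 0.203), and Ehhadh, the bifunctional enzyme of peroxisomal oxidation, at 82.2, 90.4 and 69.9 against 115, 152 and 169 CPM. Both sets of libraries were again separate. On the other side, Apoa1, the main protein of HDL (rn6 chr8:50525091-50526875), was at 622, 637 and 609 CPM in PULS VEH and at 419, 314 and 298 CPM in CONS VEH (0.86, SE 0.19, adjusted p = 0.254), and was among the 20 that DESeq2 called. Esr1, the estrogen receptor, was at 264, 222 and 275 against 181, 119 and 121 CPM and was also among those 20, as were the enzymes Ass1, Hpd, Cyp1a2, Cyp2c22 and Cyp3a23/3a1 and the acute phase genes Orm1 and Hp. Without CONS VEH 2 the log2 fold change in edgeR went from -2.22 to -0.97 for Orm1 and from -0.74 to -0.26 for Hp, and DESeq2 then still called Orm1 (adjusted p = 0.036 in DESeq2). Of the 20 DESeq2 calls, 10 were also called when only the 6 vehicle libraries were fitted. With 1 library left out, 19 of the 20 were called without CONS VEH 1, 11 without PULS VEH 1, 10 without CONS VEH 2, 8 without PULS VEH 3, 7 without PULS VEH 2 and 0 without CONS VEH 3. These settings were added after seeing the data.

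**Figure D4:**
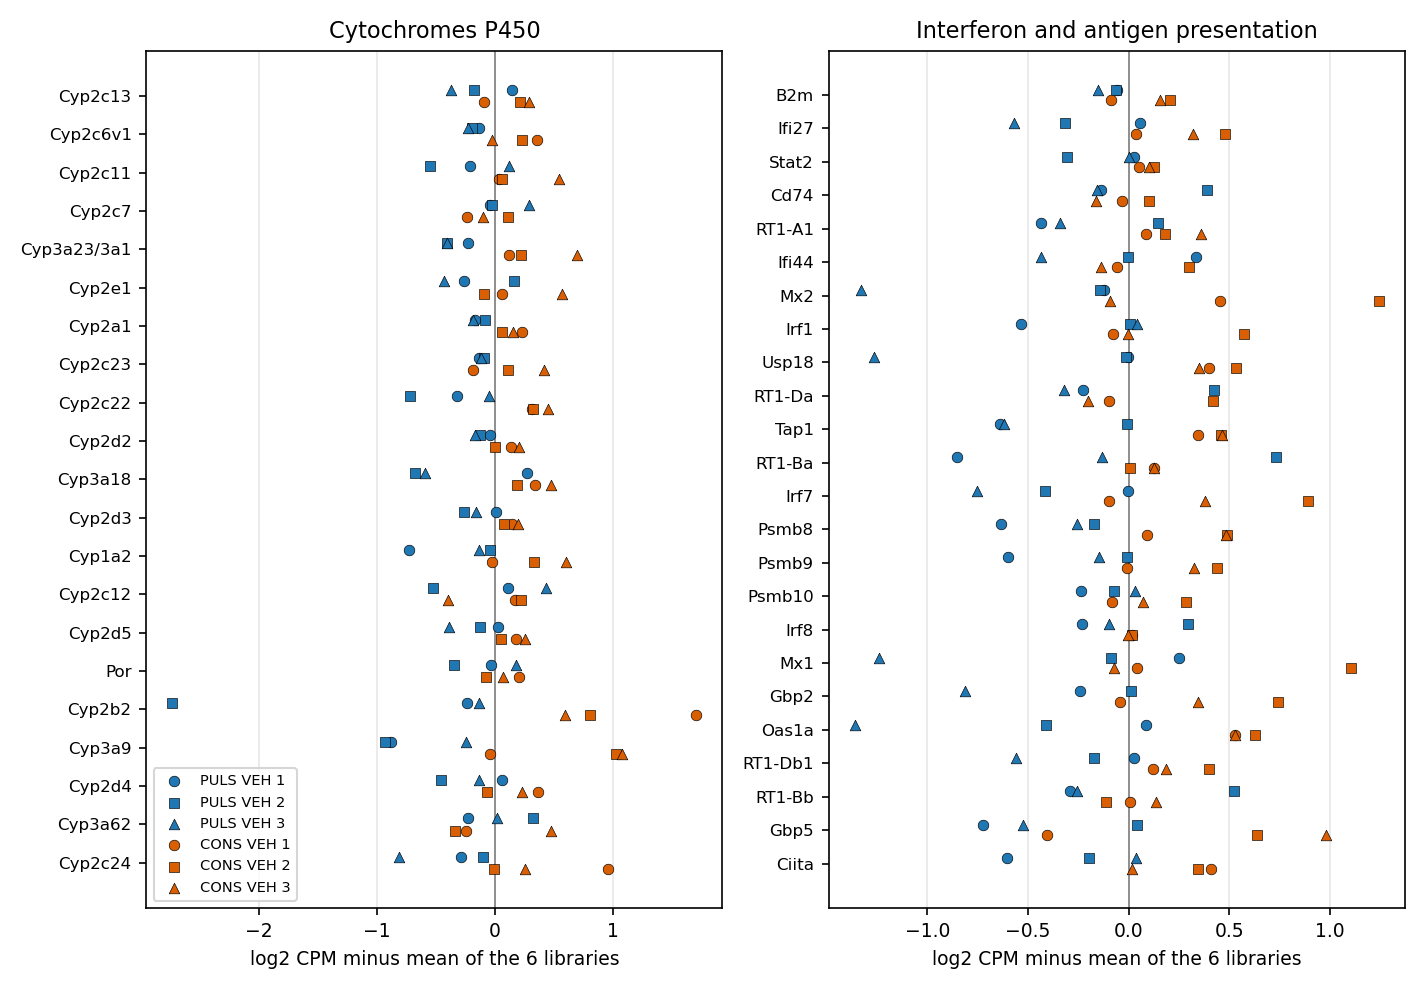
Log2 CPM minus the mean of the 6 vehicle libraries for members of the P450 list (left) and members shown of the interferon and antigen presentation list (right) with a mean CPM of 5 or more, PULS VEH in blue and CONS VEH in orange with the shape giving the replicate. The blue points lie left of the orange ones for most P450s and for Psmb8 and Tap1, and Cyp2b2 in PULS VEH 2 and Mx2, Usp18 and Oas1a in PULS VEH 3 are the lowest points of their rows.

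P450 genes of drug and steroid metabolism were lower in PULS VEH in part at an unadjusted p, and edgeR called 0 of them. DESeq2 called Cyp3a23/3a1, Cyp2c22 and Cyp1a2 as lower. Of 22 tested in edgeR, 12 had an unadjusted p under 0.05 in that direction, against 4.75% of all genes, and 0 in the other, 12 had all 3 PULS VEH libraries below all 3 CONS VEH libraries, against 6.86%, and the median log2 fold change was -0.36 against 0.01 over all genes. The 12 include Cyp1a1, at 0 reads in all of PULS VEH and 2, 1 and 3 reads in CONS VEH, and 11 remained without it (median -0.36). Cyp3a23/3a1, which hydroxylates steroids, was at 1440, 1270 and 1270 CPM in PULS VEH and at 1830, 1960 and 2730 CPM in CONS VEH (-0.71, SE 0.16, adjusted p = 0.254 in edgeR). Its relative Cyp3a9 was at 20.5, 19.8 and 31.7 against 36.5, 76.9 and 79.3 CPM. The abundant male-type Cyp2c11 (2120, 1670 and 2660 against 2510, 2560 and 3580 CPM) and Cyp2c13 overlapped between the groups, and Cyp2c7, Cyp2c12 and Cyp3a62 had small positive fold changes (0.03 to 0.15). The summed level of the list was 20690, 18720 and 19670 CPM in PULS VEH and 23370, 24300 and 27050 CPM in CONS VEH (p = 0.1, two-sided exact permutation test, the smallest p that 3 against 3 libraries allow, adjusted p = 0.56 over 39 library values). The counts of members of these families could be split between near-identical genes by the authors' counting. Without PULS VEH 3 or without CONS VEH 3 the count at p under 0.05 was 7 of 22 in either case.

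Interferon response and antigen presentation genes lay on the same side. Of 31 tested, 11 had an unadjusted p under 0.05 and were lower in PULS VEH, against 4.75% of all genes, 0 were higher, against 4.38%, and the median log2 fold change was -0.51 against 0.01. Psmb8, a subunit of the immunoproteasome, was at 11.6, 16.0 and 15.1 CPM in PULS VEH and at 19.2, 25.3 and 25.2 CPM in CONS VEH (-0.69, SE 0.16, adjusted p = 0.254 in edgeR), and Tap1, which carries peptides to MHC class I, at 12.9, 20.0 and 13.1 against 25.5, 27.6 and 27.7 CPM. In both genes no libraries of the groups overlapped. The class II genes of antigen-presenting cells were mixed, with log2 fold changes of 0.09 for Cd74, -0.03 for RT1-Ba, -0.05 for RT1-Da and -0.44 for RT1-Db1. The antiviral genes Mx2 (23.0, 22.7 and 9.96 against 34.3, 59.3 and 23.5 CPM) and Oas1a (9.06, 6.42 and 3.32 against 12.3, 13.2 and 12.3 CPM) were lowest in PULS VEH 3. Without PULS VEH 3 the count at p under 0.05 was 6 of 31, and without CONS VEH 2, the library with the most Kupffer cell marker reads, it was also 6.

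Enzymes of amino acid breakdown and of conjugation lay on the same side in part, as did some plasma proteins. For amino acid breakdown 8 of 21 were lower at an unadjusted p under 0.05 and 0 higher (median -0.28), where 4.75% of all genes were lower and 4.38% higher, the shares against which the counts of the lists that follow stand too. Ass1, the argininosuccinate synthase of the urea cycle, was at 1230, 1030 and 1210 against 1460, 1910 and 1880 CPM, and Hpd, which breaks down tyrosine, at 1640, 1660 and 1650 against 2040, 2790 and 2620 CPM. Cps1, the entry enzyme of the urea cycle, overlapped (7260, 6220 and 5930 against 5860, 7350 and 8000 CPM). For plasma proteins 7 of 21 were lower and 1, Apoa1, was higher (median -0.19), with Apoa2 (491, 551 and 470 against 554, 771 and 852 CPM) on the opposite side from Apoa1. For conjugating enzymes 6 of 21 were lower and 0 higher (median -0.30), among them Gstt3 (46.9, 26.1 and 30.5 against 60.0, 62.4 and 70.8 CPM). The counts without CONS VEH 3 were 5 for amino acid breakdown and 4 for plasma proteins, and that of plasma proteins was 3 without PULS VEH 2 or CONS VEH 2 and 4 without PULS VEH 3. Other hepatocyte lists leaned the same way, so the shift was not particular to these. With no library left out, 5 of 14 periportal hepatocyte genes were lower and 1 higher (median -0.30). Of 16 gluconeogenesis and glycogen genes 5 were lower and 1 higher, and of 16 bile acid genes 4 and 1. Of 16 pericentral hepatocyte genes 4 were lower and 0 higher. Sterol synthesis genes, by contrast, had 0 of 24 at that p and a median of -0.0041. The amino acid stress response list had 1 of 16 lower and 3 higher.

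Gene span moved with the difference between the patterns. Of the 9010 genes, 8643 (95.9%) had a span from start to end in RefSeq (GRCr8), and the median log2 fold change went over 5 equal groups of genes from -0.11 in the shortest through -0.06, 0.0015 and 0.07 to 0.13 in the longest. At an unadjusted p under 0.05, 198 genes of the shortest group were lower and 13 higher in PULS VEH, whereas 18 of the longest group were lower and 212 higher. Over the 8643 genes, which share the same 6 libraries, span and fold change had a Spearman correlation of 0.39, and of -0.21 for PULS CORT minus CONS CORT. The library values showed that the groups were not uniform in this. The median deviation of the longest minus that of the shortest group was 0.04, 0.15 and 0.05 in PULS VEH and 0.08, -0.24 and -0.22 in CONS VEH, so CONS VEH 1 lay with the PULS VEH libraries, and the CORT libraries lay at -0.30 to -0.02. The interferon, plasma protein and conjugating lists have median spans of 9.59, 7.51 and 15.2 kb, below the 31.8 kb of all genes, while the P450s have 35.8 kb. Heat shock and chaperone genes (8.5 kb) and sterol synthesis genes (17.4 kb) also have short spans, with median log2 fold changes of -0.023 and -0.0041. The part of gene span in the list values was not tested.

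**Figure D5:**
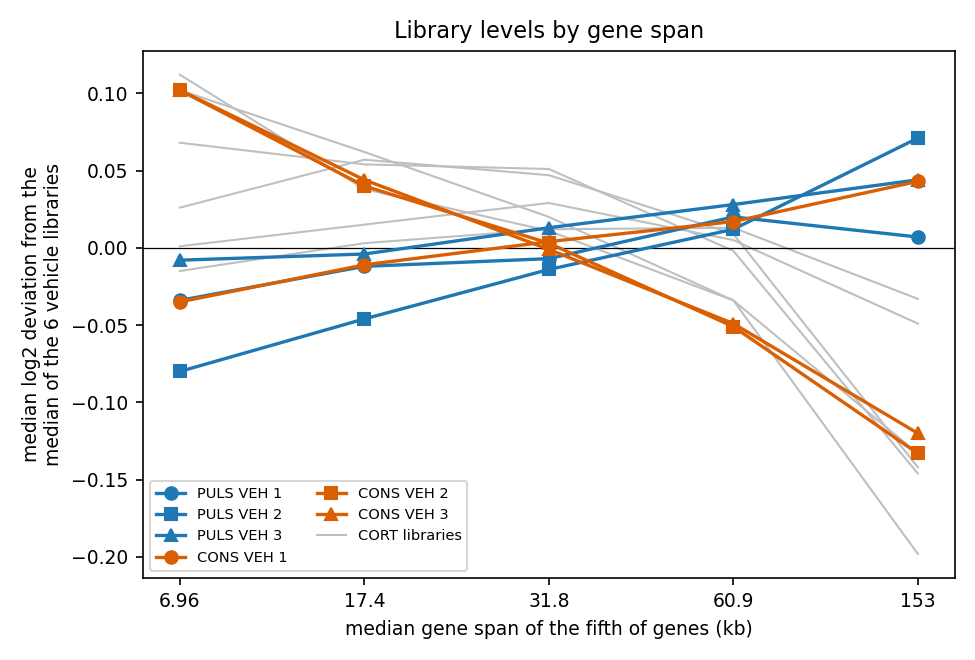
Median log2 deviation of each library from the median of the 6 vehicle libraries, in 5 equal groups of genes by RefSeq span (x axis, median span of the group in kb), with PULS VEH in blue, CONS VEH in orange and the CORT libraries in grey. CONS VEH 2 and CONS VEH 3 slope down, at 0.10 in the shortest group and -0.13 and -0.12 in the longest, and CONS VEH 1 slopes up with the 3 PULS VEH libraries.

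The numbers in the sample titles divided the vehicle libraries in the same way. PULS VEH 1 to 3 and CONS VEH 1 carry numbers over 1000 (1081, 1088, 1089 and 1134), and CONS VEH 2 and CONS VEH 3 carry 812 and 813, near the 787 to 798 of the CORT libraries. What the numbers stand for is not stated, so no batch is named here. In expression, CONS VEH 1 lay nearer to PULS VEH (median absolute log2 difference 0.17 to 0.19) than to CONS VEH 2 (0.23) or CONS VEH 3 (0.21). By the number of genes 2-fold or more apart it did not, since CONS VEH 1 differed from CONS VEH 3 and from PULS VEH 1 in 85 genes each, from PULS VEH 3 in 106, from PULS VEH 2 in 181 and from CONS VEH 2 in 216. When the vehicle contrast was limited to the libraries numbered over 1000, which leaves 1 CONS VEH library whose spread is assumed to be that of the other groups, 2 genes were called (Rbm20 and Npnt, both lower in PULS VEH) and 704 of 13885 had an unadjusted p under 0.05. In that fit the median log2 fold change was -0.28 over 21 P450s and -0.15 over 31 interferon and antigen presentation genes. It was -0.14 over 21 amino acid breakdown genes and -0.21 over 21 conjugating enzymes. The 21 plasma proteins had a median of 0.045, against 0.0061 over all 13885 genes. PULS VEH has no library with a lower number, so in the contrast of all 6 libraries the parts of pattern and title number cannot be told apart. Between PULS VEH and PULS CORT, hormone and title number cannot be told apart either, since all PULS CORT libraries carry lower numbers.

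With hormone, the same contrast of patterns called 125 of 14092 genes (0.887%), 38 higher and 87 lower in PULS CORT, against 0 without it. These libraries share none with the vehicle contrast but stand in the same fit. A test of the difference between the pattern effects without and with hormone called 4 genes, Psmb8, Cyp2c22, Csrp1 and Ppargc1a. That count was 288 without CONS VEH 1, 15 without PULS VEH 1, 10 without PULS VEH 3, 2 without CONS VEH 2 and 1 without PULS VEH 2 or CONS VEH 3, with Psmb8 among the calls each time.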

How the data were processed

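RNA was measured by RNA-Seq of whole liver, with stranded total RNA libraries made from 1 µg of RNA of integrity 8 to 10. The deposited values are counts of reads per gene, and per the labels and the study's methods the authors trimmed adapters, aligned reads to rat rn6 with STAR (version not given in the sources used here) and counted exonic reads with featureCounts 1.6.2. Gene names and rn6 positions came from another table of the authors, which named 22747 of 22929 genes. The authors' own comparison columns hold fold changes and p-values and were not used.

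Genes whose 12 libraries summed to more than 10 reads were tested with edgeR 4.0.16 in R 4.3.3 (quasi-likelihood, TMM factors, all 12 libraries in 1 fit for a shared spread, Benjamini-Hochberg adjustment over 14092 genes, called at an adjusted p under 0.05 and 1.5-fold). A log2 fold change is PULS VEH minus CONS VEH. Spread was the SD of log2 CPM with a prior count of 2, over genes with a mean CPM of 5 or more. Summed levels were compared by a two-sided exact permutation test (scipy 1.17.1). limma-voom (limma 3.58.1), DESeq2 1.42.0, other scalings, filters and left-out libraries were alternatives. Tested on simulated PULS VEH and CONS VEH counts of the 14092 genes, edgeR called 99.0% of 200 genes changed by 1 to 2 on the log2 scale and 60.5% of those changed by 0.6 to 1. It made 12 and 4 false calls among the unchanged genes. All changed genes had a mean CPM of 5 or more, and counts were drawn independently. The simulation held no shared library differences such as those by gene span, so these shares need not hold in the real libraries. Depth was 4711659 to 7777219 reads, 3 reads corresponded to 0.386 to 0.637 CPM in vehicle libraries, and such floors cover counting error only.

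The comparison, gene lists and rules were chosen with earlier results of these data known. Named genes were the 20 with the widest spread, the 3 furthest above and below in each library, called genes, the most abundant and widest members of lists, and all glucocorticoid and clock genes. A ranking of genes by level per length was not made, since exon lengths were not used here, and no called gene was left for the planned promoter motifs. The 3 promoters and their motifs, and the genes with the smallest p, were chosen after values were seen. Some members of the lists are counted but not reported by name here.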

Additional observations from a re-analysis of the deposited data

Results flagged for a closer look

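For 4 of 14092 genes the effect of the infusion pattern differed between vehicle and hormone by the edgeR interaction test, and in each the effects without and with CORT had opposite signs or sizes. Psmb8, the immunoproteasome subunit, was at 11.6, 16.0 and 15.1 CPM in PULS VEH, 19.2, 25.3 and 25.2 in CONS VEH, 20.2, 22.5 and 17.4 in PULS CORT and 8.73, 8.16 and 8.42 in CONS CORT. Its difference of pattern effects was -1.94 (log2, SE 0.24, adjusted p = 0.00568 in edgeR). The CONS CORT libraries were the lowest of the 12 and the PULS VEH libraries the next lowest.

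Cyp2c22, a P450 whose reads may be split with relatives of its family, was at 844, 640 and 1020 CPM in PULS VEH and 1310, 1320 and 1440 in CONS VEH, against 2310, 1840 and 1580 in PULS CORT and 1010, 1200 and 1140 in CONS CORT (-1.47, SE 0.24, adjusted p = 0.0416 in edgeR). Csrp1, a LIM-domain protein of the cytoskeleton, was at 43.8, 48.9 and 64.1 CPM in PULS VEH and 67.4, 76.0 and 79.1 in CONS VEH, against 53.9, 52.7 and 44.2 in PULS CORT and 30.7, 27 and 32.2 in CONS CORT (-1.26, SE 0.20, adjusted p = 0.0416 in edgeR). In both, PULS VEH lay below CONS VEH and PULS CORT above CONS CORT with no overlap. Ppargc1a, a coactivator of gluconeogenic genes, had overlapping vehicle libraries (17.8, 20.6 and 29.9 against 23.9, 17.4 and 21.9 CPM) and was at 58.5, 32.6 and 41.8 CPM in PULS CORT and 163, 148 and 175 in CONS CORT (1.95, SE 0.29, adjusted p = 0.0323 in edgeR). The part of the title numbers in these values was not tested.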

How the results depend on the processing

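The count of 0 genes between the vehicle patterns was the same with limma-voom, RLE and upper-quartile factors, a CPM filter, the 6 vehicle libraries alone and other thresholds in edgeR. DESeq2 called 20 (7 higher and 13 lower), edgeR with no filter on low counts 30 (11 and 19 of 17397 genes), and edgeR with 1 library left out 0 to 23 (0 to 4 higher, 0 to 19 lower), the highest without CONS VEH 1. In settings added after seeing the data, DESeq2 on the 6 vehicle libraries called 20 (7 and 13), DESeq2 called 42 (17 and 25) without PULS VEH 1, 16 (5 and 11) without PULS VEH 2, 22 (4 and 18) without PULS VEH 3, 102 (52 and 50) without CONS VEH 1, 24 (4 and 20) without CONS VEH 2 and 4 (0 and 4) without CONS VEH 3, and edgeR with title numbers over 1000 only 2 (0 and 2). The replicate block called 0, as the fit without it did. Deviations from the group mean correlated at -0.14 to 0.01 for same-numbered libraries and at -0.03 to 0.10 for differently numbered ones. With 3 libraries a group, such values cannot show whether libraries that share a number are paired.

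The median SD was 0.189 in PULS VEH and 0.205 in CONS VEH at a mean CPM of 1 or more and 0.132 and 0.161 at 20 or more, and with 1 library left out 0.114 to 0.158 and 0.13 to 0.18. Genes 2-fold apart within a group numbered 1681, 232 and 379 to 494. The 35 genes followed under the alternatives were those with the smallest p or called by DESeq2 in these same libraries. Of their 805 alternative fold changes, 804 kept their direction, and Adh6 reversed to 0.021 with title numbers over 1000 only. Since the genes were chosen by these values and the settings share libraries, this count is no independent check of direction. Causes were not tested. With 3 libraries a side, changes under 2-fold were often missed in simulation, and genes under about 5 CPM rest on few reads.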

Other observations

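Some genes that growth hormone is known to govern were highest in PULS VEH 2, although the summed level of the growth hormone and sex-typed list there (11090 CPM) lay within the 10610 to 14200 CPM of the other libraries. Igf1, the growth factor made under growth hormone, was at 1540 CPM there and at 470 to 694 CPM in the other vehicle libraries. Cish, a feedback inhibitor of STAT5 signalling, was at 13.4 against 0.122 to 1.45 CPM, and Prlr, the prolactin receptor, at 53.2 against 12.3 to 22.4 CPM. Not all such genes rose there, and the male-type P450 Cyp2c11 was lowest in PULS VEH 2 among the vehicle libraries. The genes named were chosen after their values were seen. Lipid synthesis was lowest in the same library, with Fasn (fatty acid synthase) at 169 against 299 to 727 CPM. The list of fatty acid and triglyceride synthesis genes summed to 2424 CPM in PULS VEH 2 and to 3875 to 4794 CPM in the other 5 libraries, and the sterol synthesis list to 2960 to 4737 CPM with PULS VEH 3 highest and CONS VEH 3 lowest. Erythroid and blood markers summed to 176 CPM in PULS VEH 1 and to 302 to 383 CPM in the others.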
